A study of Mus musculus with 6 samples.

Results

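The 10 genes described here encode Notch ligands (Dll4, Jag1, Jag2), Notch receptors (Notch1, Notch4), transcriptional targets of Notch (Hey1, Heyl) and proteins that mark arterial endothelium (Efnb2, Gja4, Gja5). They were taken by symbol from a count table of 54532 mouse genes, and all 10 were found by their Ensembl identifiers. The table covers whole adrenal glands in 2 groups, VEGF/LysM with 3 libraries and WT with 3 libraries, and the series addresses the effect of macrophage-derived VEGF-A on the gland. LysM is another name of Lyz2, the lysozyme gene of myeloid cells. The labels give no allele, promoter, strain, age or sex for either group, nor whether a replicate was an animal of its own or a pool of glands, so each p below reflects how far these libraries scatter, a scatter that may be technical.

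Notch signalling passes between touching cells. A ligand of the Delta or Jagged family on one cell binds a Notch receptor on its neighbour, the receptor is cut by Adam10 and then by gamma-secretase, and the freed intracellular part joins Rbpj in the nucleus to switch on Hes and Hey genes. In vessels, VEGF-A is known to induce Dll4, and Notch activity favours arterial over venous identity. The adrenal cortex and medulla are supplied by arterioles of the capsule that open into a dense bed of fenestrated capillaries, so arterial endothelium is a small part of the gland.

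The ligands Dll4 and Jag1, whose windows held the element marked below, and the receptor Notch4, for comparison, are shown by the 250 bases before their annotated RefSeq transcription starts. The window of the third ligand, Jag2, held no match and is not printed. The table of promoters matched 8 of the 10 genes, with Hey1 and Heyl not matched. Capitals mark CACGCG on either strand (read as CGCGTG on the minus strand), a short element that Hes and Hey repressors are known to bind. Sequences run 5′ to 3′ on the strand of the gene, build GRCm38.p6, at chr2:119325534-119325783 on the plus strand for Dll4, chr2:137116521-137116770 on the minus strand for Jag1 and chr17:34564045-34564294 on the plus strand for Notch4.
Dll4: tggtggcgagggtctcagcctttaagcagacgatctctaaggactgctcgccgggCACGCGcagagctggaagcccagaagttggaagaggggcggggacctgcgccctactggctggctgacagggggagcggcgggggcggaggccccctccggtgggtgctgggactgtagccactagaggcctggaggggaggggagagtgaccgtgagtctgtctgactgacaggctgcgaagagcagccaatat
Jag1: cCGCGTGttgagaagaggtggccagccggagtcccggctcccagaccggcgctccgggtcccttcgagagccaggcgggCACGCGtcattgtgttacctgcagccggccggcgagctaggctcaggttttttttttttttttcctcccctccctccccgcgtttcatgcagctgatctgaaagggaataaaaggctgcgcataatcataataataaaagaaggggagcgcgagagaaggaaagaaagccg
Notch4: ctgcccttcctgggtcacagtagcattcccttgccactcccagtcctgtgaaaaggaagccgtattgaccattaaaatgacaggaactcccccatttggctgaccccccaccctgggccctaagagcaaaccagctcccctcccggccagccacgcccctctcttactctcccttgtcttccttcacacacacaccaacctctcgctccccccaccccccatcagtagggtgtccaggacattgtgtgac
Of the 8 windows, those of Dll4 (1 match) and Jag1 (2 matches) held CACGCG, an element found in 7.62% of 32851 windows of this length in the table. The 8 windows were 56.4% to 87.2% GC, against a median of 52.4% over all windows, so the shares are not like for like. For Gja5, the bases that follow the window were not found in its GENCODE M21 transcripts. The Rbpj element TGGGAA was in 0 of the 8 and in 21.6% of all windows, and the E-box CACGTG in 0 of the 8 and in 6.02% of all, each searched on both strands. No match of one element can be a match of another, and a match or its lack in a window of 250 bases describes the sequence only.

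Library totals ran from 16476879 to 18671950 counts. Values are in CPM, the share of a library's counts taken by a gene, scaled by TMM, a factor that makes libraries comparable when a few genes take many reads. One library stood apart: WT replicate 3 had a TMM factor of 0.840 against 1.02 to 1.05 in the other 5, and 10 hepatocyte genes took 6.31% of its counts against 0.0139% to 0.0952% elsewhere. VEGF/LysM replicate 3 was the next highest, with 0.0952%. The 7 lymphocyte genes summed to 1033 CPM in WT replicate 3 and to 59.6 to 269 CPM in the others, and 6 kidney tubule genes to 34.6 CPM there and to 0.293 to 2.77 CPM in the others. The adrenal label held, with 7 cortex genes at 22214 to 41438 summed CPM and 7 medulla genes at 3862 to 9481, the lowest of each in WT replicate 3. Each difference of the 10 genes is therefore also given without WT replicate 3, and those of other genes only in part.

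In VEGF/LysM glands set against WT glands, none of the 10 genes passed the test. All 10 passed the filter on low counts, and edgeR's quasi-likelihood test called 0 of them at an adjusted p of 0.05, against 0% of the 16300 genes tested (adjusted p = 0.999 for each member). At an unadjusted p under 0.05 it found 0 of the 10 and 459 of all genes (2.82%), and the groups did not overlap for 1 of the 10 (Hey1) and for 5.95% of all genes. limma-voom called 0 genes in all (224 unadjusted) and DESeq2 called 0 (542 unadjusted), none of them among the 10. The smallest unadjusted p of a member was 0.181, that of Gja5. Fitted log2 fold changes were below 0 for 8 of the 10 (80%), against 49.7% of all genes, and their median was -0.20 against 0.0013 over all genes. Without WT replicate 3 they were below 0 for 7 of 10 against 48.5% of all genes, with a median of -0.18 against 0.0080, and edgeR called 0 members and 1 gene in all (0.006%), with 0 members and 2.09% of all genes at an unadjusted p under 0.05. The 10 genes were chosen with results of these libraries known, so these shares are given as a description. The 95% interval of the log2 fold change lay between -1 and 1 for 8 of the 10, and reached below -1 for Gja4 and Gja5. In whole glands, fewer cells of a type and less RNA per cell cannot be told apart.

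**Figure D1:**
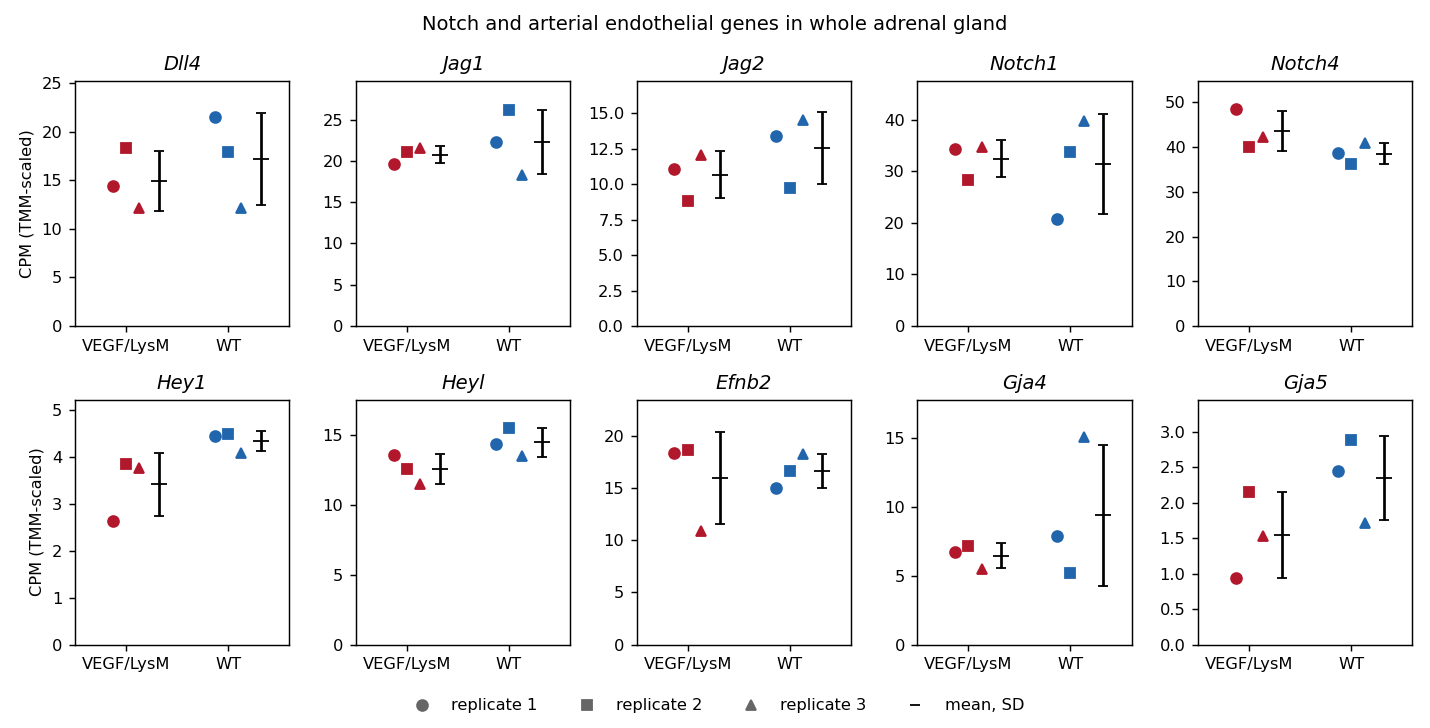
TMM-scaled CPM (vertical axis) of each of the 10 genes in VEGF/LysM (left, red) and WT (right, blue) glands, with 1 symbol per library and the mean ± SD (n = 3) beside each group. The groups overlap in every panel except that of Hey1, and WT replicate 3 (triangle) is far above the other libraries for Gja4.

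Among the ligands, Dll4, the Delta-like ligand of tip cells and arteries (ENSMUSG00000027314, chromosome 2, 119325784 to 119335962, plus strand, GRCm38), read 14.5, 18.3 and 12.2 CPM in VEGF/LysM replicates 1 to 3 and 21.6, 17.9 and 12.2 CPM in WT replicates 1 to 3. The groups overlapped over most of their range, and the lowest library of each was its replicate 3. Dll4 averaged 15.0 ± 3.09 CPM in VEGF/LysM and 17.2 ± 4.73 CPM in WT (SD, n = 3 each), a log2 fold change of -0.20 (95% interval -0.84 to 0.44). Without WT replicate 3 the log2 fold change was -0.40 (interval -0.89 to 0.10), and with each library left out in turn it ran from -0.40 to -0.0059, the value nearest 0 without WT replicate 1. An opposite-strand transcript, Gm14207, shares 214 bases of exon with Dll4 and held 7 to 24 counts per library against 164 to 379 for Dll4. The libraries do not mark strand, so reads lying within the bases shared with such a partner cannot be told apart.

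Jag1, a Jagged ligand made by endothelium and by smooth muscle (ENSMUSG00000027276, chromosome 2, 137081456 to 137116644, minus strand), read 19.6, 21.1 and 21.5 CPM in VEGF/LysM and 22.3, 26.2 and 18.3 CPM in WT. All 3 VEGF/LysM libraries fell inside the WT range. Its log2 fold change was -0.10 ± 0.18 (SE) with all libraries and -0.23 ± 0.17 without WT replicate 3. Jag2, the other Jagged ligand (ENSMUSG00000002799, chromosome 12, 112907819 to 112929776, minus strand), read 11.1, 8.83 and 12.1 CPM in VEGF/LysM and 13.4, 9.74 and 14.6 CPM in WT. Its replicate 2 was the lowest library in each group, and the ranges overlapped. The log2 fold change of Jag2 was -0.24 ± 0.24 (SE), or -0.12 ± 0.24 without WT replicate 3.

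Both receptors had fitted differences above 0. Notch1 (ENSMUSG00000026923, chromosome 2, 26457903 to 26516663, minus strand) read 34.4, 28.3 and 34.7 CPM in VEGF/LysM and 20.7, 33.7 and 39.8 CPM in WT. The VEGF/LysM libraries lay close together inside a wide WT range, with WT replicate 1 lowest of all and WT replicate 3 highest. Its log2 fold change of 0.05 (95% interval -0.55 to 0.65) became 0.25 without WT replicate 3 and turned to -0.17 without WT replicate 1. The opposite-strand gene 0610009E02Rik shares 1068 bases of exon with Notch1 and held 14 to 27 counts per library against 364 to 654 for Notch1.

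Notch4, the receptor most restricted to endothelium (ENSMUSG00000015468, chromosome 17, 34564268 to 34588503, plus strand), read 48.5, 40.1 and 42.2 CPM in VEGF/LysM and 38.6, 36.1 and 40.8 CPM in WT. The groups overlapped only between the lowest VEGF/LysM library (40.1 CPM) and the highest WT library (40.8 CPM). Notch4 averaged 43.6 ± 4.41 CPM in VEGF/LysM and 38.5 ± 2.36 CPM in WT (SD, n = 3 each), a log2 fold change of 0.18 (95% interval -0.15 to 0.51). Its standard error of 0.14 was the smallest of the 10 genes, and without WT replicate 3 the log2 fold change was 0.22 (interval -0.13 to 0.57). The ratio of Notch4 to Notch1 CPM within a library was 1.41, 1.41 and 1.22 in VEGF/LysM and 1.86, 1.07 and 1.03 in WT, with the VEGF/LysM libraries inside the WT range.

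Hey1, a repressor of the Hey family that Notch induces in arterial endothelium (ENSMUSG00000040289, chromosome 3, 8663359 to 8667256, minus strand), read 2.64, 3.84 and 3.77 CPM in VEGF/LysM and 4.44, 4.48 and 4.08 CPM in WT. It was the only 1 of the 10 whose groups did not overlap, lower in VEGF/LysM, as were the groups of 2.41% of all genes tested. The gap was narrow: the nearest libraries held 73 counts in VEGF/LysM replicate 2 (95% Poisson interval 57.2 to 91.8, counting error only) and 55 counts in WT replicate 3 (41.4 to 71.6), before scaling. Its log2 fold change was -0.34 (95% interval -0.99 to 0.30; edgeR, adjusted p = 0.999), or -0.39 without WT replicate 3. Heyl, a related repressor also known from vascular smooth muscle and pericytes (ENSMUSG00000032744, chromosome 4, 123233556 to 123249875, plus strand), read 13.6, 12.6 and 11.5 CPM in VEGF/LysM and 14.4, 15.6 and 13.5 CPM in WT. The groups met at VEGF/LysM replicate 1 and WT replicate 3. Heyl averaged 12.6 ± 1.06 CPM in VEGF/LysM and 14.5 ± 1.03 CPM in WT (SD, n = 3 each), a log2 fold change of -0.21 ± 0.18 (SE), or -0.26 ± 0.19 without WT replicate 3.

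Among the arterial markers, Efnb2, the transmembrane ligand ephrin B2 of arterial endothelium (ENSMUSG00000001300, chromosome 8, 8617434 to 8661242, minus strand), read 18.4, 18.7 and 10.9 CPM in VEGF/LysM and 15.0, 16.6 and 18.3 CPM in WT. VEGF/LysM replicate 3 was low, and the other libraries of that group were at or above the highest WT value. Its log2 fold change of -0.06 ± 0.25 (SE) turned to 0.16 without VEGF/LysM replicate 3 and to 0.01 without WT replicate 3. Ephb4, its receptor on venous endothelium, read 91.1, 74.7 and 72.1 CPM in VEGF/LysM and 80.8, 86.1 and 74.6 CPM in WT. The ratio of Efnb2 to Ephb4 CPM was 0.202, 0.251 and 0.151 in VEGF/LysM and 0.186, 0.193 and 0.245 in WT, with overlapping ranges.

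The arterial connexins, which form gap junctions between endothelial cells, had the largest fitted differences and the widest intervals of the 10. Gja4 (ENSMUSG00000050234, chromosome 4, 127311421 to 127314039, minus strand) read 6.74, 7.15 and 5.47 CPM in VEGF/LysM and 7.85, 5.20 and 15.1 CPM in WT. WT replicate 3 held nearly all of the difference: the log2 fold change was -0.53 ± 0.41 (SE) with all libraries, -0.02 ± 0.29 without WT replicate 3, and 0.10 without both replicates 3. In the same library the smooth muscle genes Acta2 and Myh11 were at 76.9 and 49.7 CPM, against at most 37.8 and 19.4 CPM in any other library. Other genes of smooth muscle and pericytes were mixed there. Cnn1, Des and Abcc9 were highest in that library, Tagln (1.11 CPM), Cspg4, Pdgfrb and Kcnj8 were lowest, and Rgs5 was neither. The part of these cells in the Gja4 value was not tested.

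Gja5 (ENSMUSG00000057123, chromosome 3, 96904693 to 97077416, plus strand) read 0.938, 2.16 and 1.53 CPM in VEGF/LysM and 2.45, 2.89 and 1.71 CPM in WT. Only VEGF/LysM replicate 2 reached above the lowest WT library. These levels rest on 16, 41 and 26 counts in VEGF/LysM and 43, 56 and 23 counts in WT, and the lowest, 16, has a 95% Poisson interval of 9.15 to 26.0. Gja5 averaged 1.54 ± 0.609 CPM in VEGF/LysM and 2.35 ± 0.595 CPM in WT (SD, n = 3 each), a log2 fold change of -0.61 (95% interval -1.57 to 0.36). Without WT replicate 3 it was -0.79 (interval -1.79 to 0.21). Its count is uncertain for a further reason: the opposite-strand gene Gpr89 shares 165 of the 5746 merged exon bases of Gja5. Gpr89 held 402 to 477 counts per library, and how many lay in the shared bases is not known.

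**Figure D2:**
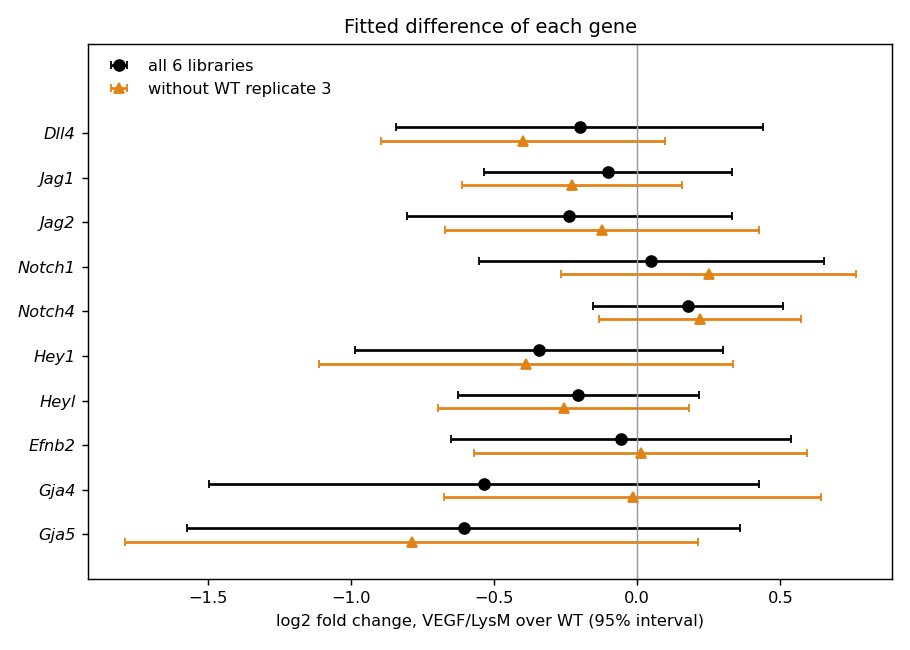
Fitted log2 fold change of each gene, VEGF/LysM over WT (horizontal axis), with its 95% interval, from all 6 libraries (black circles) and without WT replicate 3 (orange triangles). Every interval crosses 0, and the point for Gja4 moves from -0.53 with all libraries to -0.02 without WT replicate 3.

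Per kilobase of merged exon, the levels of the 10 genes spanned a wide range. In VEGF/LysM the order was Notch4 (5.41 ± 0.547 CPM per kb), Dll4 (3.89 ± 0.802), Gja4 (3.83 ± 0.519), Jag1 (3.56 ± 0.177), Heyl (2.46 ± 0.208), Efnb2 (2.33 ± 0.647), Notch1 (2.28 ± 0.253), Jag2 (1.53 ± 0.238), Hey1 (1.05 ± 0.206) and Gja5 (0.268 ± 0.106; SD, n = 3). In WT the lowest 7 kept this order, from Jag1 (3.82 ± 0.672 CPM per kb) down to Gja5 (0.408 ± 0.104), while Gja4 led at 5.56 ± 3.03, above Notch4 (4.78 ± 0.293) and Dll4 (4.47 ± 1.23). Over the 6 libraries the ranges of neighbours in the VEGF/LysM order overlapped, except that Jag1 stayed above Heyl and Hey1 above Gja5 in every library. Gja5 was thus the least abundant of the 10 per length in both groups.

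The 10 genes did not deviate together in any library. Relative to each gene's mean of log2(CPM + 0.5) over the 6 libraries, 6 of 10 were below 0 in each VEGF/LysM library, 3 of 10 in WT replicates 1 and 2 and 4 of 10 in WT replicate 3. The median deviation was -0.08, -0.02 and -0.12 in VEGF/LysM replicates 1 to 3 and 0.08, 0.14 and 0.04 in WT replicates 1 to 3. Set against WT replicates 1 and 2, WT replicate 3 was higher in Gja4 by 1.21 and in Notch1 by 0.55 log2 units, while its difference was -0.70 for Dll4, -0.64 for Gja5 and -0.40 for Jag1. The highest library exceeded the lowest by 3.08-fold for Gja5, 2.90-fold for Gja4 and 1.92-fold for Notch1, and by 1.34-fold to 1.77-fold for the other 7 genes.

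**Figure D3:**
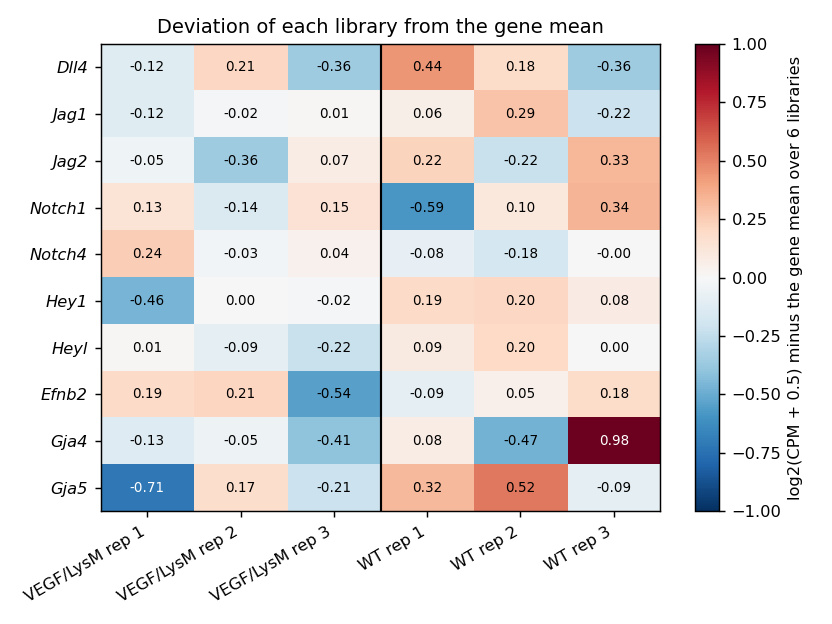
Deviation of each library (columns, VEGF/LysM left of the line, WT right) from the mean of each gene (rows) over the 6 libraries, in log2(CPM + 0.5), red above and blue below the mean. The largest deviations are those of Gja4 in WT replicate 3 (0.98) and Gja5 in VEGF/LysM replicate 1 (-0.71), and no column is of 1 colour.

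Pan-endothelial genes did not separate the groups, and 0 of 12 passed the test. Fitted log2 fold changes were above 0 for 5 and below 0 for 7, with a median of -0.04. Without WT replicate 3 the median was -0.12, with 4 of 12 above 0. The 12 genes summed to 732, 714 and 653 CPM in VEGF/LysM and 729, 732 and 629 CPM in WT, with replicate 3 lowest in each group. Cdh5, the cadherin of endothelial junctions, differed by -0.07 ± 0.18 (log2, SE), and Pecam1, an endothelial adhesion protein, by -0.15 ± 0.14. With libraries scaled to equal pan-endothelial counts, the median of the 10 was -0.21, and edgeR called 0 of them. Dll4 was 1.98%, 2.56% and 1.87% of the pan-endothelial sum in VEGF/LysM and 2.96%, 2.45% and 1.94% in WT, and Hey1 was 0.361%, 0.538% and 0.577% in VEGF/LysM and 0.608%, 0.612% and 0.649% in WT. On this scale too, Dll4 overlapped between groups and Hey1 did not. Heyl, which overlapped in CPM, did not overlap here, at 1.86%, 1.77% and 1.76% in VEGF/LysM and 1.97%, 2.12% and 2.15% in WT. WT replicate 3 was the lowest WT library for Heyl in CPM (13.5) and the highest here. Its pan-endothelial sum, by which Heyl was divided, was the lowest of all (629 CPM). The share of all genes without overlap on this scale was not computed.

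The smooth muscle and pericyte genes are given beside the 10 because Jag1 and Heyl are also known from those cells. Their 10 genes summed to 268, 297 and 280 CPM in VEGF/LysM and 280, 321 and 386 CPM in WT, with WT replicate 3 highest. Acta2, smooth muscle actin, read 20.6, 32.3 and 17.1 CPM in VEGF/LysM and 37.8, 37.6 and 76.9 CPM in WT, a log2 fold change of -1.12 ± 0.37 (SE; edgeR, adjusted p = 0.999) without overlap of the groups. Myh11, smooth muscle myosin, had -1.08 ± 0.46, and both were nearer 0 without WT replicate 3 (-0.69 and -0.45). With all 6 libraries the list did not share this direction: fitted log2 fold changes were above 0 for 5 of its 10 genes and below 0 for 5. Without WT replicate 3 they were above 0 for 3 of the 10. Their median was -0.06, or -0.20 without WT replicate 3, and edgeR called 0 of the 10. The part of these cells in the values of Jag1 and Heyl was not tested.

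Other genes of the Notch pathway did not pass the test, in either direction, for any of 24 genes. Fitted log2 fold changes were above 0 for 14 and below 0 for 10, with a median of 0.05, or 0.03 without WT replicate 3. Dll1, another Delta-like ligand, read 3.52, 4.36 and 5.30 CPM in VEGF/LysM and 7.39, 5.67 and 8.99 CPM in WT. Its groups did not overlap, its log2 fold change was -0.74 ± 0.29 (SE), and it was the only 1 of the 24 with an unadjusted p under 0.05 in edgeR's test (0.0383, adjusted p = 0.999). Without WT replicate 3 the log2 fold change of Dll1 was -0.57 ± 0.30.

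Of the other receptors, Notch2 had a log2 fold change of 0.08 ± 0.20 (SE). Notch3, the receptor of smooth muscle and pericytes, read 33.3, 34.4 and 99.0 CPM in VEGF/LysM and 33.4, 38.1 and 71.8 CPM in WT, so replicate 3 was high in both groups and the other 4 libraries were close together. Its log2 fold change of 0.22 ± 0.50 became 0.63 without WT replicate 3 and -0.07 without both replicates 3. Adam10, which cuts the ligand-bound receptor, had 0.08 ± 0.17, and Rbpj, the nuclear partner of Notch, 0.15 ± 0.18. Lfng and Mfng, which add sugars to Notch, had -0.35 ± 0.29 and -0.19 ± 0.21, and Lfng stood at 35.0 CPM in WT replicate 3 against 16.1 to 21.6 in the others.

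The other targets of the pathway gave no shared direction. Hes1 read 16.5, 24.8 and 28.3 CPM in VEGF/LysM and 27.3, 19.7 and 14.3 CPM in WT, a log2 fold change of 0.18 ± 0.30 (SE) that turned to -0.02 without WT replicate 3. Hey2, a close relative of Hey1, read 1.52, 2.52 and 1.41 CPM in VEGF/LysM and 2.16, 1.08 and 3.42 CPM in WT, and its log2 fold change of -0.27 ± 0.49 turned to 0.17 without WT replicate 3. Nrarp, a feedback inhibitor of Notch, had -0.27 ± 0.40.

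Other arterial endothelial genes did not pass the test either, for any of 14 tested of 15 (Gkn3 was below the filter). Fitted log2 fold changes were above 0 for 9 and below 0 for 5, with a median of 0.13, or 0.12 without WT replicate 3, so this list and the 10 genes had medians of opposite sign. Sox17, a transcription factor of arterial identity, read 13.7, 11.9 and 12.4 CPM in VEGF/LysM and 11.6, 11.2 and 10.6 CPM in WT, and its log2 fold change was 0.19 ± 0.18 (SE). Vegfc, a lymphatic growth factor named here because its groups did not overlap, read 10.4, 9.99 and 10.2 CPM in VEGF/LysM and 6.99, 9.33 and 6.98 CPM in WT. These were the 2 of 14 whose groups did not overlap, both higher in VEGF/LysM, against 3.54% of all genes tested. Nrp1, a co-receptor of VEGF-A, had 0.24 ± 0.21 and Bmx, a kinase of arterial endothelium, 0.41 ± 0.46. Unc5b, a netrin receptor, had 0.14 ± 0.17 and Acvrl1, a BMP receptor of endothelium, 0.12 ± 0.15. The 5 below 0 were Cxcl12 (-0.79 ± 0.48), Sox18 (-0.18 ± 0.19), Tmem100 (-0.08 ± 0.35), Epas1 (-0.06 ± 0.20) and Sema3g (-0.01 ± 0.24). Without WT replicate 3, Sox18 was at -0.30 and Cxcl12 at 0.03.

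Venous endothelial genes did not pass the test for any of 7, with 3 above 0, 4 below 0 and a median of -0.02. Without WT replicate 3 the median was -0.11, with 2 of 7 above 0. Nr2f2, the transcription factor that sets venous identity by holding back Notch, differed by 0.05 ± 0.18 (log2, SE), turning to -0.11 without WT replicate 3, and Ephb4 by -0.02 ± 0.14.

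**Figure D4:**
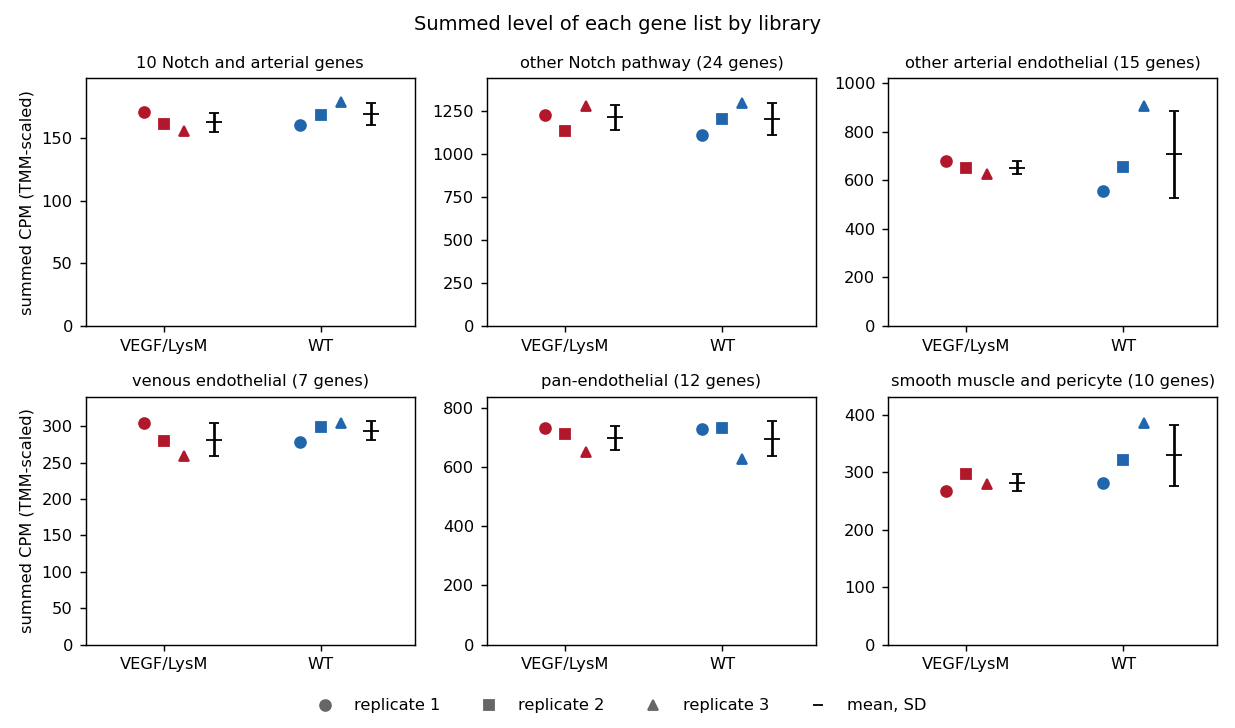
Summed TMM-scaled CPM (vertical axis) of each gene list by library, VEGF/LysM left (red) and WT right (blue), with the mean ± SD (n = 3). The 10 Notch and arterial genes summed to 162 ± 7.38 CPM in VEGF/LysM and 169 ± 8.85 CPM in WT with overlapping groups. WT replicate 3 (triangle) is highest for these 10 genes and for the other Notch, other arterial, and smooth muscle and pericyte lists. It is lowest for the pan-endothelial list.

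Without WT replicate 3 the groups of 4 of the 10 genes (Jag1, Hey1, Heyl and Gja5) did not overlap with VEGF/LysM lower, against 6.59% of 16659 genes tested, and those of Notch4 did not overlap with VEGF/LysM higher, against 7.92%. None of the 5 passed edgeR's test after adjustment over all genes, and the smallest unadjusted p of any member was 0.102, that of Dll4. In the same 5 libraries 2 of 12 pan-endothelial genes, Tie1 and Esam, were also lower in VEGF/LysM without overlap. The difference between these lists was not tested.

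The genes most like 3 of the 10 across libraries were sought among the other 76 tested genes of the endothelial, Notch and mural lists, by the distance between centred log2(CPM + 0.5) values over the 6 libraries. Nearest to Dll4 were Sox18 (distance 0.27), Cldn5 (0.42) and Pdgfrb (0.47), against a median distance of 0.91. Nearest to Heyl were Tie1 (0.21), Ephb4 (0.25) and Pecam1 (0.25), against a median of 0.60. Nearest to Gja5 were Hey1 (0.53), Esam (0.71) and Jag1 (0.76), against a median of 1.18. Genes that vary little lie near each other by this measure, and the distances were not recomputed without WT replicate 3.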

How the data were processed

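RNA of fresh whole adrenal glands was column-purified, samples of high integrity were kept, and libraries followed Smart-seq2, which does not mark strand, per the labels' protocols. The submitters' processing notes name kallisto, DESeq2 1.36.0 and mm10, with no roles. The authors deposited whole-number counts per gene, not normalised, and the sources used here do not give how they were rounded. Columns were matched to samples by title.

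From these counts, genes passing filterByExpr (minimum count 10, total 15) were scaled by TMM and tested with edgeR 4.0.16 (R 4.3.3), group as the only term, with Benjamini-Hochberg adjustment over all 16300 genes. Standard errors and 95% intervals come from this fit, whose common biological coefficient of variation was 0.365. The smallest p an exact permutation of 3 against 3 can give is 0.1, so single values were not tested alone. limma 3.58.1 and DESeq2 1.42.0 were alternatives, with 303 genes given no DESeq2 p. Locations and exon lengths are from GENCODE M21 (GRCm38), promoters from RefSeq. The steps were tested on simulated counts.

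The 10 genes and all lists were chosen with earlier results of these data known. The rule for named genes took the 10 members, 21 set genes of the wider lists and the 3 nearest genes to Dll4, Heyl and Gja5. Others are named where a count of 5 or fewer called for it.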

Additional observations from a re-analysis of the deposited data

How the results depend on the processing

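The alternatives were followed for 31 genes, the 10 members and the 21 set genes. None of the 31 passed an adjusted p of 0.05 in any of 16 alternatives. The smallest adjusted p was 0.666 for a member (edgeR without WT replicate 2, Gja4) and 0.656 for the set genes. Of the 10 members, 0 had an unadjusted p under 0.05 in any alternative. The further genes named in the text were not followed through all alternatives. The median log2 fold change of the 10 stayed below 0 throughout, at -0.15 with library size as the only scaling and -0.21 to -0.14 over the fits that left out 1 library. The count of genes called over the whole table was 0 to 1 over those fits, the 1 without WT replicate 3. The labels do not say whether replicate numbers pair the samples. Deviations of same-numbered libraries correlated at 0.06, -0.01 and 0.25. The replicates 3 correlated best with each other, while the highest value of all, 0.32, was that of VEGF/LysM replicate 1 with WT replicate 2. With 3 libraries per group these values cannot settle a pairing, and a batch shared by the replicates 3 was not tested. With the replicate number as a block, edgeR called 0 genes, 0 members among them, and the median of the 10 was -0.19.

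Of 160 values of the 10 members under the alternatives, 8 turned direction, in 4 genes, and of 335 of the 21 set genes 23 did. The cause was not tested. Upper-quartile scaling turned Ephb4 (0.0023), and library size as the only scaling turned Efnb2 (0.023) and Ephb4 (0.041). With 1 library left out in turn, the values spanned 0 for 12 of the 31 genes followed. They ran from -0.17 (without WT replicate 1) to 0.25 (without WT replicate 3) for Notch1, from -0.23 (without WT replicate 3) to 0.032 (without WT replicate 2) for Jag1 and from -0.20 to 0.16 (without VEGF/LysM replicates 2 and 3) for Efnb2. They ran from -0.087 to 0.17 for Notch2 and from -0.065 to 0.22 for Adam10 (without WT replicates 1 and 2), from -0.49 (without VEGF/LysM replicate 3) to 0.63 (without WT replicate 3) for Notch3, from -0.16 to 0.098 for Cdh5 (without WT replicates 1 and 2) and from -0.15 to 0.043 for Ephb4 (without VEGF/LysM replicates 1 and 3). With WT replicate 3 as the library that turned them, they ran from -0.022 to 0.45 for Hes1, from -0.60 to 0.17 for Hey2, from -0.51 to 0.0049 for Lfng and from -0.11 to 0.19 for Nr2f2, which also turned without VEGF/LysM replicate 1. Without both replicates 3, Efnb2 (0.24), Gja4 (0.10), Notch3 (-0.073), Hes1 (-0.18), Hey2 (0.33), Lfng (0.00035), Nr2f2 (-0.059) and Cdh5 (0.0025) turned. Bmx was below the filter of 1 CPM in 3 libraries. Depth limits Gja5, with 16 to 56 counts per library, and Hey1, with 45 to 87. It also limits Bmx, with 4 to 14, Nrarp, with 19 to 44, and Hey2, with 21 to 48.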

Other observations

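Some genes of the wider lists, chosen after their values were seen, stood far from the other libraries in WT replicate 3. Psen2, a catalytic subunit of gamma-secretase, read 38.5, 48.3 and 51.0 CPM in VEGF/LysM and 49.0, 46.6 and 165 CPM in WT. Cxcl12, a chemokine of stromal and arterial cells, read 94.0, 80.6 and 87.5 CPM in VEGF/LysM and 81.2, 89.7 and 284 CPM in WT. Slco2a1, a prostaglandin transporter, read 14.2, 12.4 and 7.83 CPM in VEGF/LysM and 11.4, 14.4 and 65.6 CPM in WT. Rgs5, a pericyte gene, was highest in replicate 3 of each group, as Notch3 was, at 68.0, 77.6 and 110 CPM in VEGF/LysM and 69.3, 81.4 and 101 CPM in WT, while Pdgfrb, another pericyte gene, was lowest there, at 66.6, 71.1 and 53.7 CPM in VEGF/LysM and 64.9, 72.2 and 44.9 CPM in WT.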
